A study of Arabidopsis thaliana with 42 samples.

Results

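The comparison set the Arabidopsis thaliana line named acs1A against the wild type Col. Its members were taken from the sample titles: 3 arrays of acs1A and the 3 Col arrays that belong to the single mutant set, together 6 of the 42 arrays of the series. The same set holds 21 arrays of 7 further lines, each named for an ACC synthase gene (acs2B and acs2C, acs4A, acs5C and acs5D, acs6E, acs9B, with 3 arrays each), and these gave a second comparison without Col. All groups were seedlings raised alike: sterilised seeds were kept for 2 days at 4 C on a medium with sucrose, grown at 25 C with 16 h of light and 8 h of dark, and sampled after 10 days. No group received a treatment that another lacked. Biotin-labelled cRNA made from 10 ug of total RNA was hybridised to one-colour Affymetrix arrays. The labels give each line by its code alone, without the kind of mutation, so what remains of the enzyme's activity in acs1A is not given in the sources used here. Replicates within a group are biological by their titles, though no label tells how the plants were divided among them, so each p-value reflects the variation among these arrays.

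ACC synthase turns S-adenosylmethionine into ACC, which ACC oxidase converts into the gaseous plant hormone ethylene. The step made by ACC synthase usually limits how much ethylene a plant makes, and the enzyme is encoded by a family of genes with overlapping expression. Ethylene is sensed by receptors in the endoplasmic reticulum and acts through the transcription factor EIN3 and its relatives on seedling growth, cell elongation and stress responses. No probe set here was named for a gene of the family, so ACS1 itself (AT3G61510) was not analysed and the line could not be checked by its own transcript.

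Transcripts of bacteria and a phage that are added to every sample set the Col arrays apart. Of 45 probe sets for these added transcripts, limma called 20 higher and 18 lower in acs1A than in Col, and 5 lower and 0 higher than in the other 7 lines (40 and 5 in all at an unadjusted p under 0.05). For thr, which is added before labelling, the Col arrays read 7.33 to 7.57, the acs1A arrays 7.71 to 8.66 and the other line arrays 7.75 to 8.66, on the log2 scale used throughout. The hybridisation control cre lay at 13.25 to 13.55 on Col, above 13.08 to 13.22 on acs1A and 12.87 to 13.21 on the other lines. Handling of the arrays and genotype therefore cannot be told apart in any difference from Col alone. The control bioC lay at 7.39 to 7.75 on acs1A, 8.43 to 8.67 on Col and 7.25 to 9.45 on the other lines. The lines thus differed among themselves in it. Only acs2C, acs4A, acs5C and part of the acs2B arrays were taken as lying at the bioC level of acs1A. Whether handling also enters the differences from the lines was not tested.

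Many transcripts differed between acs1A and Col, and a small share of them also differed from the other lines. Of 22746 probe sets, limma called 2008 higher (8.83%) and 2852 lower (12.5%) than Col at a Benjamini-Hochberg adjusted p below 0.05, and 88 of these calls exceeded 1 on the log2 scale. Against the mean of the other 7 lines, 613 were higher (2.69%) and 557 lower (2.45%), 19 of them by more than 1. A difference is said here to hold where it was called in both comparisons with the same sign, and 263 higher (1.16%) and 311 lower (1.37%) probe sets did so. These 574 made up 11.8% of the calls against Col and 49.1% of the calls against the other lines. Both comparisons use the same acs1A arrays, so their agreement is not independent. In 22 probe sets the calls had opposite signs. The number that held was 266 without acs1A replicate 1, 150 without replicate 2 and 367 without replicate 3, and the calls against the other lines numbered 533, 294 and 750. A set of 87 probe sets held whichever of the 6 acs1A and Col arrays was left out. With the lines at the bioC level of acs1A as the only other lines, 375 probe sets were called against them and 196 held, and with the fit reduced to the 6 arrays 2319 were called against Col.

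**Figure D1:**
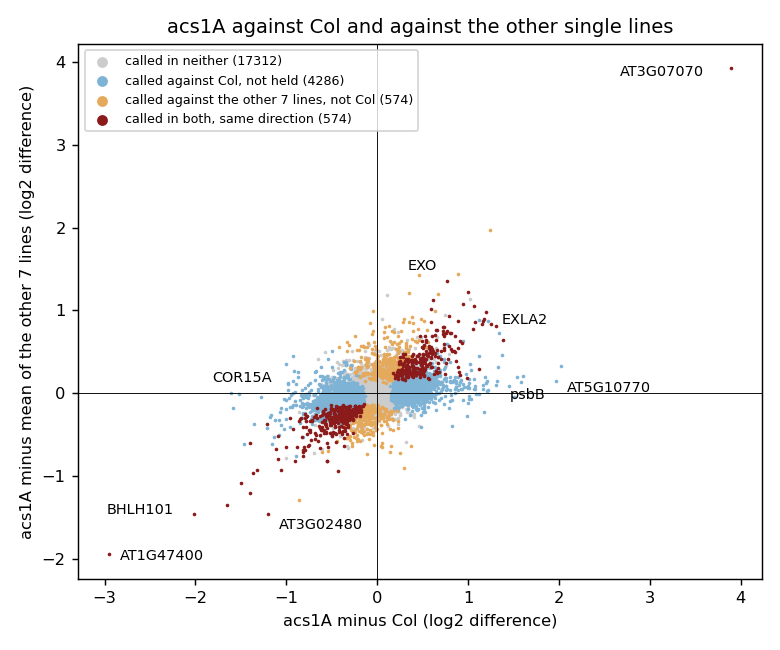
Each point is a probe set, with the log2 difference of acs1A from Col on the horizontal axis and from the mean of the other 7 lines on the vertical axis; the axes share the 3 acs1A arrays. AT3G07070 stands apart at 3.90 and 3.93, AT1G47400 and BHLH101 lie lowest on the left, and COR15A and psbB, which differ from Col, lie at 0.01 and 0.20 on the vertical axis.

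The count of differences depended on the line with which acs1A was compared. The fewest probe sets were called against acs5C, 432 (1.9%), followed by acs5D with 691 (3.04%), acs2C with 990 (4.35%) and acs4A with 1260 (5.54%). Against acs2B 2345 probe sets were called (10.3%), against acs9B 2497 (11%) and against acs6E 3990 (17.5%). Of the probe sets that held, 16 were called in the same direction against every one of the 7 lines, 5 higher and 11 lower, and 9 of them carried the name of a single gene.

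**Figure D2:**
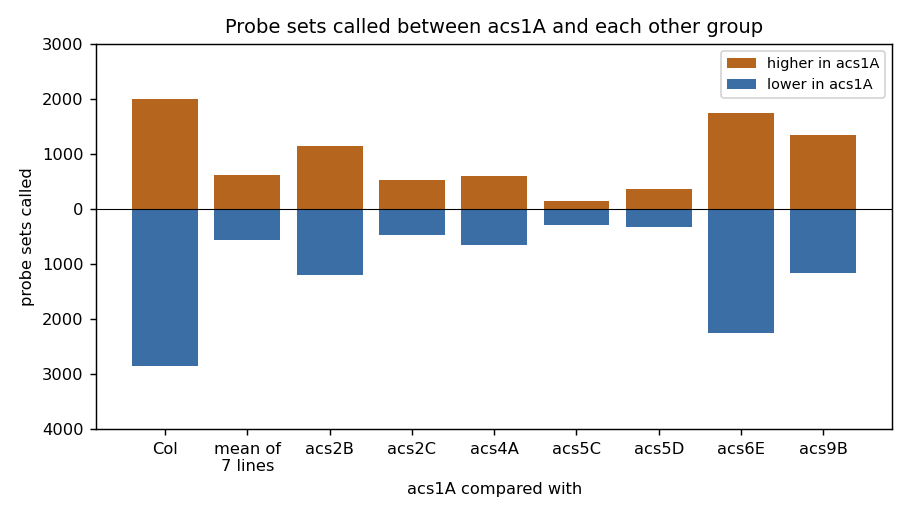
Bars give the number of probe sets called higher (above 0) and lower (below 0) in acs1A at an adjusted p below 0.05, against Col, the mean of the other 7 lines and each line. The bars for Col (2008 and 2852) and acs6E (1741 and 2249) are the tallest, and those for acs5C (150 and 282) the shortest.

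The largest difference of the line was a transcript high in acs1A alone among the single lines. AT3G07070, which the annotation used here gives by locus code only, read 9.38, 8.93 and 9.18 in acs1A and 5.26, 5.48 and 5.06 in Col. On the 21 arrays of the other lines it lay between 5.07 and 5.45, with a median of 5.21, so no array of any other group came near the acs1A arrays. It was 14.9 times as high as in Col (log2 difference 3.90 ± 0.11 SE, limma adjusted p = 4e-18) and 15.2 times as high as in the other lines (3.93 ± 0.08, adjusted p = 4.6e-21). The gene was called against 7 of 7 lines. Of the 10 genes that neighbour it in the RefSeq order, 5 on each side, 4 were measured, and none rose with it. AT3G07080, the next gene, was lower than Col by -0.28 ± 0.08 (adjusted p = 0.016) and by -0.11 ± 0.06 than the other lines (adjusted p = 0.35). AT3G07030, AT3G07090 and AT3G07110 were called in neither comparison.

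Among named genes, 8 lay below Col and below each of the 7 lines, and the annotation gives all of them by locus code only. AT3G02480 read 5.55, 5.39 and 5.01 in acs1A, 6.05, 6.61 and 6.91 in Col, and 5.83 to 8.04 in the other lines (median 6.72). Its acs1A arrays were below all other arrays of the set, and it fell by 1.21 from Col and by 1.47 from the lines (SE 0.19 and 0.14, limma adjusted p = 7.6e-05 and 2e-06). AT5G01780 read 6.05, 6.07 and 6.14 in acs1A against 6.93, 6.94 and 6.85 in Col and 6.62 to 6.98 in the lines. It fell by 0.82 ± 0.08 from Col (adjusted p = 5.7e-08) and by 0.71 ± 0.06 from the lines (7.6e-08), again with no overlap. AT5G23840 fell by 0.80 and 0.66, AT3G05730 by 0.56 and 0.61, AT3G16660 by 0.42 and 0.45, and AT4G25250 by 0.37 and 0.64 against Col and the lines, each with its 3 acs1A arrays below all 24 others. AT5G26270 fell by 0.43 from Col and by 0.94 from the lines, but Col replicate 1 (7.67) lay within the acs1A range of 7.48 to 7.69, and its call against Col was lost on the 6 arrays alone (adjusted p = 0.072). The remaining gene, AT1G47400, is described next. All 8 kept both calls without any 1 acs1A or Col array.

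**Figure D3:**
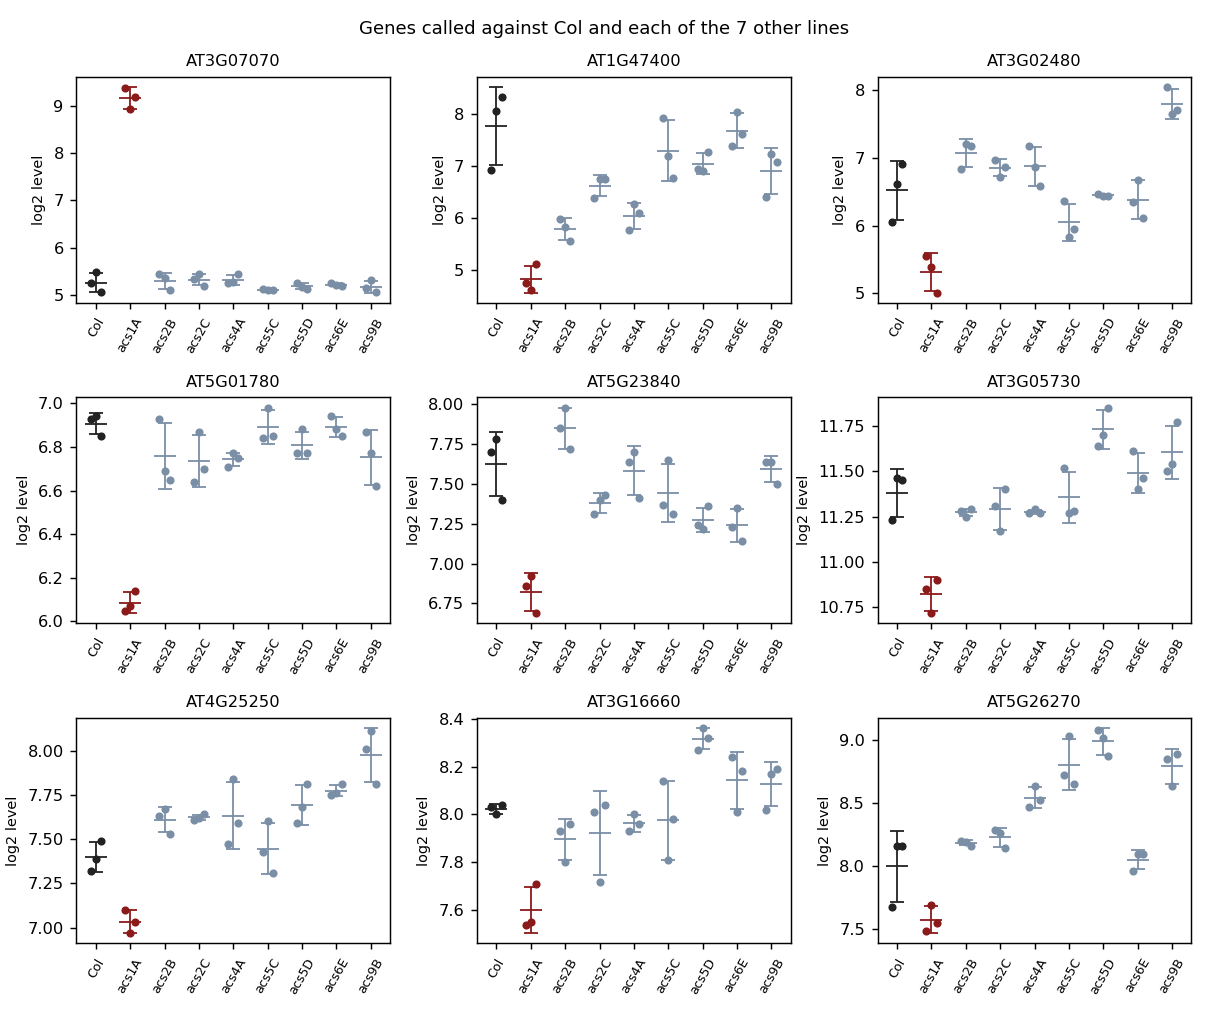
Points are single arrays and bars the mean and SD of 3 arrays, on the log2 scale, for the 9 named genes called in acs1A against Col and each of the 7 other lines; each panel has its own axis. AT3G07070 is higher in acs1A (8.93 to 9.38) than on any other array, and the remaining 8 genes are lower.

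Transcripts listed here with iron deficiency were low in acs1A. The list holds genes of the iron deficiency response, not only genes that rise in it, and 3 of its 25 entries were measured. All 3 were lower than Col, where 12.5% of all probe sets were. Against the other lines 2 were lower (66.7%), beside 2.45% of all probe sets. AT1G47400 read 4.74, 4.61 and 5.11 in acs1A and 6.92, 8.05 and 8.33 in Col. It ranged from 5.55 to 8.04 in the other lines with a median of 6.77, so all acs1A arrays lay below all others. The gene was 7.71 times lower than in Col (log2 difference -2.95 ± 0.29 SE, limma adjusted p = 1.5e-07) and 3.86 times lower than in the lines (-1.95 ± 0.22, adjusted p = 1.3e-05).

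BHLH101 encodes a transcription factor of the group that switches on iron uptake genes. It read 4.38, 4.55 and 4.59 in acs1A and 5.75, 6.68 and 7.14 in Col, without overlap. The other lines spread from 4.41 to 7.42 (median 6.03) and did reach down to acs1A: the means of acs4A and acs2B were 5.00 and 5.10. BHLH101 fell by 2.02 ± 0.30 from Col (adjusted p = 4.5e-05) and by 1.46 ± 0.23 from the lines (0.00042), and was called against 5 of 7 lines. PYE, a transcription factor of the iron response in the root, read 6.44, 6.42 and 6.51 in acs1A and 6.48, 7.10 and 7.18 in Col, with Col replicate 1 among the acs1A values. It fell by 0.46 ± 0.11 from Col (adjusted p = 0.0047, but 0.095 on the 6 arrays alone), and its difference of -0.27 ± 0.09 from the lines missed the threshold (adjusted p = 0.070). The Col group itself spread widely in these genes, with SDs of 0.75 for AT1G47400 and 0.71 for BHLH101.

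**Figure D4:**
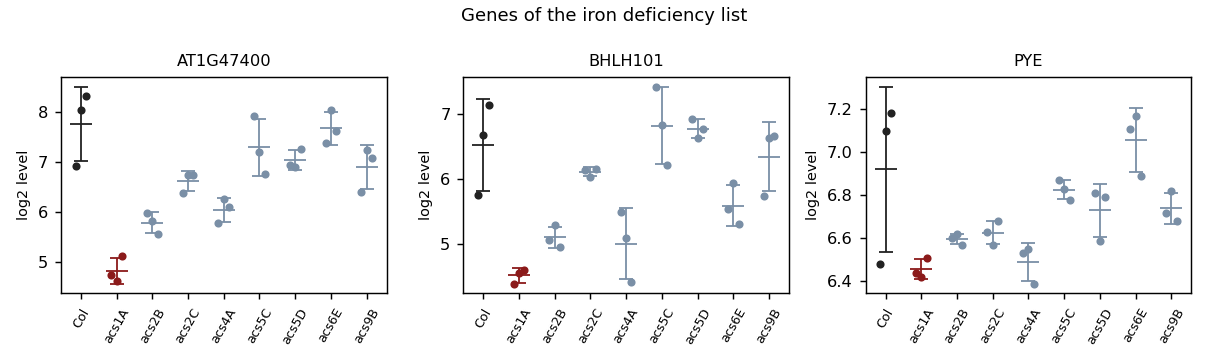
Log2 levels of the 3 measured genes of the iron deficiency list on the 27 arrays of the single set, with the mean and SD of 3 arrays per group. In AT1G47400 the acs1A arrays (4.61 to 5.11) lie below all others, in BHLH101 the lowest array of another line, at 4.41 in acs4A, reaches them, and in PYE the groups overlap.

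Genes of cell growth and the cell wall moved in both directions. Cell walls loosen during growth through expansins and are remodelled by xyloglucan endotransglucosylases (XTH), cellulases of the GH9 family and pectin methylesterases. Of 18 measured expansins and expansin-like genes, 2 were higher and 4 lower than Col, and 4 higher and 2 lower than the other lines. In each direction 2 held (11.1%, beside 1.16% held higher and 1.37% held lower over all probe sets). The 11.1% higher and 22.2% lower than Col compare with 8.83% and 12.5% of all probe sets, and the 22.2% higher and 11.1% lower than the lines with 2.69% and 2.45%. Their median difference was -0.11 from Col and -0.13 from the lines, against -0.02 and 0.00 over all probe sets. The higher genes belonged to the expansin-like group and the lower ones to the expansins proper.

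EXLA2, an expansin-like gene, read 7.73, 8.07 and 7.43 in acs1A, 6.99, 6.03 and 6.47 in Col and 6.25 to 7.74 in the other lines (median 6.84). Its acs1A arrays lay above all Col arrays and overlapped with acs9B (mean 7.64). EXLA2 rose by 1.25 ± 0.20 from Col (limma adjusted p = 0.0001) and by 0.84 ± 0.15 from the lines (0.0017, lost at 0.059 without acs1A replicate 2). EXLA1 rose by 1.07 ± 0.37 from Col (adjusted p = 0.042) and by 1.05 ± 0.28 from the lines (0.028), but acs9B stood higher still with a mean of 10.21. The acs2C arrays (9.64, 9.33 and 9.52) also overlapped with those of acs1A (9.65, 10.03 and 9.33). The EXLA1 calls were fragile: without acs1A replicate 2 the adjusted p was 0.16 against Col and 0.29 against the lines, and without Col replicate 2 it was 0.24 against Col. They were also lost with trended and robust variances (0.082 and 0.064), and that against Col on the 6 arrays alone (0.062). EXLA3 and EXLB1 were called against the lines (0.36 and 0.42), not against Col (0.23 and -0.11), and the EXLA3 call was lost without any 1 acs1A array (0.057 to 0.09).

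EXPA15, an alpha expansin, moved the opposite way. It read 9.33, 8.93 and 9.33 in acs1A, 9.84, 10.04 and 9.93 in Col and 9.35 to 9.95 in the other lines (median 9.64), so the acs1A arrays were the 3 lowest of the set. EXPA15 fell by 0.74 ± 0.10 from Col (limma adjusted p = 1.8e-05) and by 0.47 ± 0.08 from the lines (0.00071), and was called against 6 of 7 lines. EXPB2 fell by 0.41 from Col and 0.27 from the lines (adjusted p = 0.0059 and 0.044), with the second call lost without any 1 acs1A array (0.068 to 0.24), after a second quantile normalization (0.051) or after median centring (0.068). Its call against Col was lost without Col replicate 2 (0.053) and on the 6 arrays alone (0.075). EXPA8 and EXPB3 fell by 0.63 and 0.35 from Col (adjusted p = 0.032 and 0.012) and were not called against the lines (0.32 and 0.16). Both calls against Col were lost without acs1A replicate 2 (0.10 and 0.094) or Col replicate 2 (0.18 and 0.11), and that of EXPA8 without any other acs1A array or Col replicate 3 as well (0.062 to 0.088).

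EXO, a gene that brassinosteroid hormones induce and that promotes leaf cell expansion, read 11.12, 11.62 and 11.06 in acs1A. Col gave 10.99, 9.85 and 10.65, and the other lines 8.78 to 10.83 with a median of 9.89. All 3 acs1A arrays were thus the highest of the set, the margin over Col replicate 1 being small. EXO rose by 1.36 ± 0.19 from the lines (limma adjusted p = 0.00014, called against 6 of 7) and by 0.77 ± 0.25 from Col (adjusted p = 0.032). The call against Col was lost without acs1A replicate 2 (0.16), without Col replicate 2 (0.23) and on the 6 arrays alone (0.087). THE1, a receptor kinase at the plasma membrane that responds to the state of the cell wall, read 9.22, 9.49 and 9.08 in acs1A, 8.84, 8.44 and 8.55 in Col and 7.98 to 8.98 in the lines, without overlap. It rose by 0.65 ± 0.14 from Col (adjusted p = 0.0016) and by 0.76 ± 0.11 from the lines (9.7e-05), and both calls held without any 1 array.

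Of the 9 measured XTH genes, 2 were higher and 1 lower than Col, and 1 higher and 1 lower than the lines. XTH33 held (11.1%, beside 1.16% held higher over all probe sets). The 22.2% higher than Col compares with 8.83% of all probe sets, and the 11.1% lower with 12.5%; against the lines, 11.1% in each direction compares with 2.69% and 2.45%. XTH33 read 6.71, 6.76 and 6.42 in acs1A, 6.17, 5.38 and 5.17 in Col and 5.11 to 7.22 in the lines (median 5.75), above every Col array but below the acs9B mean of 6.88. It rose by 1.06 ± 0.21 and 0.78 ± 0.16 (limma adjusted p = 0.00094 against Col and 0.005 against the lines, the latter 0.077 without acs1A replicate 2). XTH16 rose by 0.63 and XTH32 fell by 0.37 from Col alone, calls lost without acs1A replicate 2 (0.086 and 0.12) or Col replicate 2 (0.084 and 0.082), and for XTH32 also without acs1A replicate 1 (0.057), Col replicate 3 (0.15) or after a second quantile normalization (0.052). In addition XTH21 fell by 0.36 from the lines alone (0.073 without acs1A replicate 2). Of 15 GH9 cellulases 1 was higher (6.67%) and 2 lower (13.3%) than Col, near the 8.83% and 12.5% of all probe sets. Against the lines 1 was higher and 1 lower (6.67% each, beside 2.69% and 2.45%), the lower one being GH9C2 (-0.44 ± 0.11, adjusted p = 0.015, lost without acs1A replicate 1 or 2 at 0.082 and 0.19). GH9B13 held (6.67%, beside 1.16% held higher). It was higher by 0.64 ± 0.10 and 0.26 ± 0.08 (adjusted p = 8.2e-05 and 0.046, the latter lost without any 1 acs1A array at 0.062 to 0.38). PMEPCRF, a pectin methylesterase, was higher by 0.48 and 0.23 (adjusted p = 0.0002 and 0.032, the latter lost without any 1 acs1A array at 0.11 to 0.18). Of 22 measured TBL genes, a family that acetylates wall polymers, 1 was higher and 1 lower than Col (4.55% each, below the shares of all probe sets) and 0 were called against the lines. Of 5 CSLC glucan synthases 2 were higher than Col (40.0%, beside 8.83% of all probe sets) and 0 called against the lines.

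**Figure D5:**
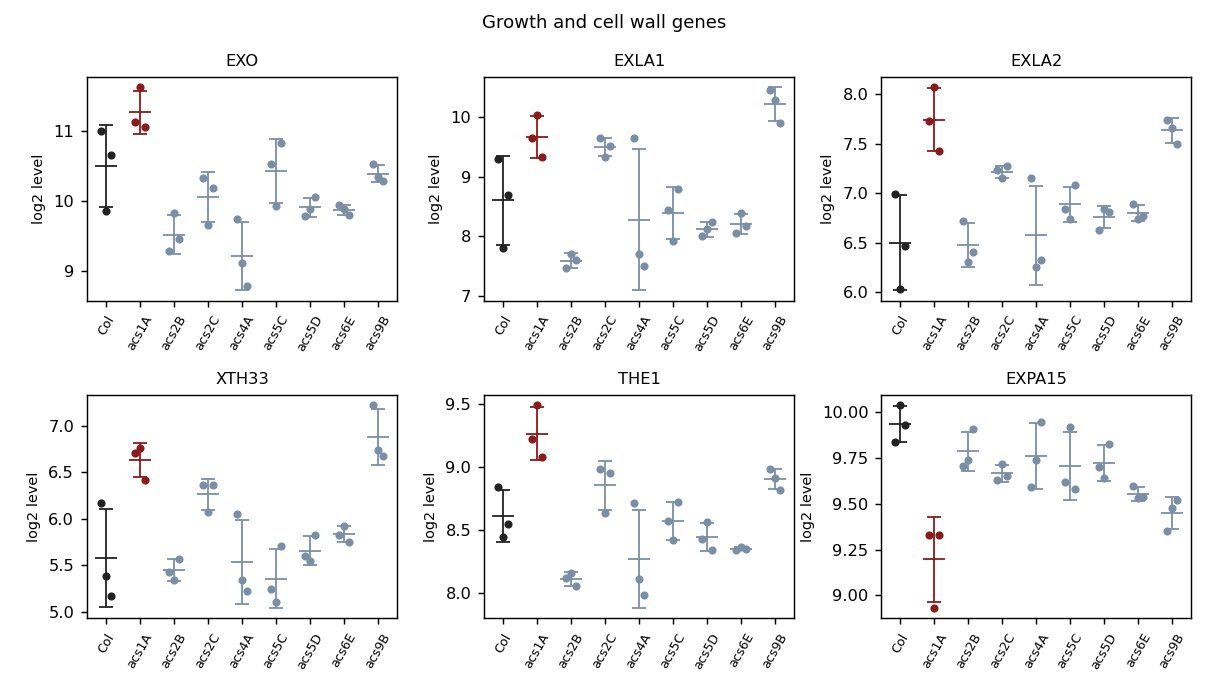
Log2 levels of 6 growth and cell wall genes on the 27 arrays, with the mean and SD of 3 arrays per group and an axis for each panel. EXO and THE1 are highest in acs1A, EXPA15 is lowest in it, and in EXLA1, EXLA2 and XTH33 the acs9B arrays reach or pass the acs1A arrays.

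Of 13 measured LCR and PDF genes, which encode small cysteine-rich peptides of the plant defensin kind, 3 were lower (23.1%) and 0 higher in each comparison, and all 3 held. Over all probe sets 12.5% were lower than Col, 2.45% lower than the lines and 1.37% held lower. The genes are PDF2.1 (AT2G02120), LCR69 (AT2G02100) and LCR68 (AT2G02130), close to each other in the RefSeq order and related in sequence family, so their probe sets may share signal. PDF2.1 read 5.14, 5.07 and 5.55 in acs1A, 6.33, 6.42 and 6.33 in Col and 5.68 to 6.60 in the other lines, so that all acs1A arrays lay lowest. It fell by 1.11 ± 0.14 from Col (limma adjusted p = 7.5e-06) and by 0.68 ± 0.11 from the lines (0.00051). LCR69 fell by 0.52 ± 0.08 and 0.39 ± 0.06 (adjusted p = 0.00011 and 0.00069). LCR68 fell by 0.47 and 0.24 (3.5e-05 and 0.0088, the latter 0.21 without acs1A replicate 2). LCR72, whose locus code follows that of LCR68, differed by 0.04 ± 0.07 from Col and -0.01 ± 0.06 from the lines at a level of 3.99. The jasmonate and ethylene responsive defensin PDF1.2 was called in neither comparison.

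CHX16, a cation and proton exchanger, read 6.16, 6.17 and 6.18 in acs1A, 6.75, 6.78 and 6.84 in Col and 6.13 to 6.97 in the other lines. It lay below Col without overlap, within the low end of the lines, and fell by 0.62 ± 0.08 and 0.42 ± 0.06 (limma adjusted p = 1e-05 and 0.00028). CHL, a lipocalin of the chloroplast, fell by 0.56 ± 0.07 from Col and 0.38 ± 0.05 from the lines (adjusted p = 4e-06 and 9.6e-05) and was lower than 6 of 7 lines. Of 11 measured tau glutathione transferases, which attach glutathione to foreign compounds, 4 were lower than Col (36.4%, beside 12.5% of all probe sets) and 1 lower than the lines (9.09%, beside 2.45%). GSTU26 was the member that held (9.09%, beside 1.37% held lower over all probe sets). It read 7.50, 7.56 and 7.47 in acs1A against 8.11, 8.08 and 7.91 in Col, and fell by 0.52 ± 0.08 and 0.35 ± 0.06 (adjusted p = 6e-05 and 0.0012). GSTU27, GSTU20 and GSTU23 fell by 0.47, 0.32 and 0.40 from Col, with differences of 0.07, 0.08 and -0.15 from the lines. A second quantile normalization and median centring each ended the GSTU23 call (0.055), as did leaving out any 1 acs1A array (0.059 to 0.16), Col replicate 2 (0.25) or Col replicate 3 (0.19).

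Of 24 cytochrome P450 genes 2 were lower in each comparison, 8.33% beside 12.5% of all probe sets against Col and 2.45% against the lines. CYP71B26 held (4.17%, beside 1.37% held lower), at -0.75 and -0.44 (limma adjusted p = 0.00067 and 0.018). Its call against the lines was lost without acs1A replicate 1 (0.062) or 2 (0.24). Of 14 SWEET sugar transporters 2 were lower than Col (14.3%, near the 12.5% of all probe sets). SWEET11, which loads sucrose into the phloem, held (7.14%, beside 1.37% held lower). It differed by -0.28 and -0.24 (adjusted p = 0.0064 and 0.0077, the latter lost without acs1A replicate 1 or 3 at 0.075 and 0.058). Of 20 beta-glucosidases 1 was lower than Col (5.0%, beside 12.5% of all probe sets) and 2 lower than the lines (10.0%, beside 2.45%). BGLU44 was the sole member that held (5.0%, beside 1.37% held lower). It was lower by 0.52 and 0.35 (0.062 against the lines without acs1A replicate 2). BGLU19 was lower than the lines alone (-0.63 ± 0.14, adjusted p = 0.0067, lost without acs1A replicate 2 or 3 at 0.059 and 0.083). Of 47 UDP-glycosyltransferases, which attach sugars to hormones and phenolic compounds, 3 were lower than Col (6.38%) and 1 lower than the lines (2.13%), shares below the 12.5% and 2.45% of all probe sets. UGT72E1 was lower than the lines alone (-0.47 ± 0.06, adjusted p = 2.8e-05, against -0.06 ± 0.07 from Col). AT4G12500, given by locus code only, read 6.24, 5.80 and 6.66 in acs1A against 7.22, 7.58 and 8.41 in Col and 6.32 to 7.91 in the lines, and fell by 1.50 ± 0.26 and 1.08 ± 0.20 (0.0002 and 0.0015, the latter 0.058 without acs1A replicate 2).

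BZIP61, a bZIP transcription factor, read 9.27, 9.26 and 9.03 in acs1A, 8.81, 8.07 and 8.52 in Col and 7.68 to 9.43 in the other lines, above all Col arrays and level with acs9B (mean 9.36) and acs2C (9.06). It rose by 0.72 ± 0.18 from Col and 0.72 ± 0.13 from the lines (limma adjusted p = 0.0052 and 0.0021). Of the 14 measured bZIP genes, 2 were higher and 2 lower than Col (14.3% each, beside 8.83% and 12.5% of all probe sets). Against the lines 3 were higher (21.4%, beside 2.69%) and 0 lower, and BZIP61 held (7.14%, beside 1.16%). BZIP53 and BZIP34 were higher than the lines alone, by 0.40 and 0.38 (0.0035 and 0.011). The BZIP53 call was lost without acs1A replicate 2 (0.097) and the BZIP34 call without any 1 acs1A array (0.052 to 0.093). GT2, a trihelix DNA-binding protein, rose by 0.53 ± 0.13 and 0.51 ± 0.10 (0.0049 and 0.0029). BZIP61 and GT2 kept their calls without any 1 acs1A or Col array. ARR15, a cytokinin-induced response regulator, rose by 0.51 from Col (adjusted p = 0.0007), and its difference of 0.25 from the lines (0.048) was lost without any 1 acs1A array (0.073 to 0.24).

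HAT2, an auxin-induced homeodomain factor, fell by 0.31 and 0.23 (limma adjusted p = 0.0058 and 0.022), and FMA, the bHLH factor FAMA of guard cell formation, by 0.35 and 0.32 (0.018 and 0.016). Against the lines, the HAT2 call was lost without acs1A replicate 2 (0.24) or 3 (0.082) and the FMA call without any 1 acs1A array (0.05 to 0.19), and against Col the FMA call was lost without acs1A replicate 2 (0.077) or Col replicate 2 (0.062). In seedling RNA, fewer cells of a type and less RNA per cell cannot be told apart. Of 7 measured AUX/IAA genes 0 were called against Col, and 1 was higher than the lines (14.3%, beside 2.69% of all probe sets). That gene, IAA18, was higher than the lines by 0.32 ± 0.08 (0.014, but 0.26 without acs1A replicate 2). All 6 measured genes of the CLE signal peptides had no call against the lines, while CLE41, CLE44, CLE27 and CLE21 were lower than Col by 0.30 to 0.50 (66.7% of the 6, beside 12.5% of all probe sets).

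Of 69 measured plastid genes, 13 were higher (18.8%) and 9 lower (13.0%) than Col, and 2 were higher (2.9%) and 4 lower (5.8%) than the other lines. Over all probe sets the shares were 8.83% and 12.5% against Col and 2.69% and 2.45% against the lines, so calls grew fewer there as well, and the shares of plastid genes lower than Col and higher than the lines lay near those of all probe sets. The photosystem II antenna gene psbB read 12.74, 12.82 and 12.61 in acs1A and 11.20, 11.28 and 11.09 in Col, but 12.24 to 12.81 in the lines. It exceeded Col by 1.53 ± 0.10 (limma adjusted p = 1.8e-10) and from the lines by 0.20 ± 0.07 (0.13). Its neighbour psbN, encoded on the opposite strand, differed by -1.59 ± 0.10 from Col (1.8e-10) and by -0.18 ± 0.08 from the lines (0.21). Among plastid genes 2.9% held higher and 1.45% lower, beside 1.16% and 1.37% of all probe sets. The plastid genes that held were ycf4 of photosystem I assembly (0.91 and 0.22), psbD of the photosystem II core (0.44 and 0.30) and petN of the cytochrome b6f complex (-0.38 and -0.36). None of these 3 kept its call against the lines without acs1A replicate 1 or 2 (adjusted p = 0.09 to 0.34), and the petN call against Col (0.049) was lost in 8 of 12 alternatives (0.05 to 0.17), a second quantile normalization and median centring among them. The plastid ribosomal gene rpl20 was lower than the lines by 0.56 ± 0.08 (0.00022) with -0.21 ± 0.11 from Col (0.19). Against the lines at the bioC level of acs1A its adjusted p was 0.15. The calls of ycf4 and psbD were lost there too (0.097 and 0.1). Among genes outside the plastid, so were those of EXLA1, EXLA3, GH9B13, BZIP34 and BGLU19 (0.053 to 0.48). The calls of AT3G07070, EXO, THE1 and others against the lines were kept.

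Among nuclear genes, LHCB4.3, a minor light-harvesting protein of photosystem II, read 8.60, 8.84 and 8.66 in acs1A, 8.33, 8.00 and 8.25 in Col and 7.73 to 8.88 in the lines. It lay above Col without overlap and rose by 0.50 ± 0.11 and 0.46 ± 0.09 (limma adjusted p = 0.0024 and 0.0019, the latter 0.054 without acs1A replicate 2). PPDK, which makes phosphoenolpyruvate from pyruvate, rose by 0.55 and 0.32 (0.00035 and 0.011), with the call against the lines lost without any 1 acs1A array (0.052 to 0.1). Of 3 measured genes of chlorophyll synthesis, PORB fell by 0.76 and CHLM rose by 0.20 from Col, and none was called against the lines. The 33.3% lower and 33.3% higher than Col compare with 12.5% and 8.83% of all probe sets. The CHLM call was lost without any 1 acs1A array or Col replicate 2 or 3 (0.057 to 0.14). Of 15 mitochondrial genes 2 were higher (13.3%) and 7 lower (46.7%) than Col, beside 8.83% and 12.5% of all probe sets. Against the lines 1 was lower (6.67%, beside 2.45% of all probe sets) and 0 higher. The respiratory gene cox1 was lower than the lines by 0.71 ± 0.09 (3.2e-05) while it differed from Col by 0.14 ± 0.11 (0.42).

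The ethylene genes that could be read did not pass the test. Of 49 entries in the lists of ethylene synthesis, signalling and response, 5 were measured. AT1G12010, listed here with the ethylene synthesis genes, read 7.45, 7.16 and 7.37 in acs1A and 7.27, 6.93 and 7.52 in Col, with overlap. Its difference from Col was 0.09, with a 95% interval of -0.12 to 0.31. EIN3, the central transcription factor of the pathway, read 9.83, 9.78 and 9.76 in acs1A and 9.75, 9.76 and 9.68 in Col, a difference of 0.06 (-0.12 to 0.24). RTE1, which acts with the ethylene receptor, differed by -0.06 (-0.21 to 0.09). The response genes PDF1.2 and ARL differed by 0.47 (-0.06 to 1.01) and 0.05 (-0.38 to 0.48). Against the other lines the 5 differences ran from -0.15 to 0.20 and none was called, although for AT1G12010 the unadjusted interval of 0.03 to 0.35 lay above 0 (limma adjusted p = 0.18). The intervals bound the change for EIN3 and RTE1 closely and leave room for a change of 1 log2 unit in PDF1.2. No phenotype or ethylene measurement was analysed here.

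The neighbours of the ACS1 locus were read as a check of the region. Of 10 genes, 5 on each side, 5 were measured. PANB2, an enzyme of pantothenate synthesis, was higher than Col by 0.56 ± 0.10 (limma adjusted p = 0.00029) but differed from the other lines by 0.01 ± 0.08 (0.95). AT3G61550 was higher than Col by 0.35 ± 0.09 (0.0074) and lower than the lines by 0.27 ± 0.07 (0.023). BRH1, AT3G61490 and AT3G61540 were called in neither comparison, so no measured neighbour differed in the same direction from both.

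Of 16 entries in the heat shock list 4 were measured, with 1 higher than Col and 2 higher than the other lines, where 8.83% and 2.69% of all probe sets were. AT5G48570, from that list, rose by 0.65 ± 0.23 and 0.64 ± 0.17 (limma adjusted p = 0.045 and 0.031), calls that were lost without acs1A replicate 1 or 3 (0.14 and 0.17 against Col, 0.19 and 0.20 against the lines) and, against Col, without Col replicate 1 or 2 (0.18 and 0.14). AT1G53540, also from the list, was higher than the lines by 0.28 ± 0.06 (0.0087), a call lost without acs1A replicate 1 (0.13) or 2 (0.059), and differed from Col by 0.08 ± 0.08. Hop3, a co-chaperone of heat shock proteins that was not on the list, rose by 0.46 ± 0.15 and 0.47 ± 0.11 (0.028 and 0.014), and lost a call without any 1 acs1A array (0.06 to 0.089 against the lines).

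Some genes differed from the lines and not from Col. AT1G50040, known by locus code, read 7.54, 7.72 and 7.58 in acs1A and 5.13 to 7.37 in the other lines, but Col spread over 7.76, 5.74 and 6.68. It exceeded the lines by 1.44 ± 0.28 (limma adjusted p = 0.0035), and the difference of 0.88 ± 0.38 from Col missed the threshold (0.099). AT3G19680 was likewise higher than all line arrays (9.46 to 9.70 against 7.32 to 9.38) within a Col range of 8.65 to 9.92. The clock gene GI read 7.64, 7.64 and 7.60 in acs1A, 7.97, 7.71 and 7.71 in Col and 7.78 to 8.60 in the lines, so that it was the lowest in the set. It was lower than the lines by 0.36 ± 0.07 (0.0044) and by 0.17 ± 0.10 than Col (0.22). DFR, an enzyme of anthocyanin synthesis, was higher than the lines by 0.52 ± 0.11 (0.0077, lost without acs1A replicate 2 at 0.079), with 0.22 ± 0.15 from Col (0.33). Of the 5 measured genes of its list it was the sole one called (20.0% higher than the lines, beside 2.69% of all probe sets). HYH, the measured gene of 15 on the light signalling list, and the 2 measured of 20 glucosinolate genes were called in neither comparison.

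Several large differences from Col were not called against the other lines. COR15A, a cold-induced protein of the chloroplast, read 7.07, 7.57 and 7.06 in acs1A and 8.55, 9.13 and 8.86 in Col, and fell by 1.61 ± 0.22 (limma adjusted p = 1.1e-05). The lines ranged from 6.09 to 8.40 around the acs1A values, with a difference of 0.01 ± 0.16 (0.99). ORA47, a transcription factor induced by wounding and jasmonate, fell by 1.53 ± 0.33 from Col (0.0017, but 0.057 on the 6 arrays alone) and differed by -0.01 ± 0.25 from the lines. The early stress genes STZ and WRKY53 were lower than Col by 1.17 and 1.08 (0.016 and 0.00031), with -0.26 and -0.32 against the lines (0.67 and 0.24), and the STZ call was lost without acs1A replicate 3 (0.11) or Col replicate 3 (0.087). Of 4 measured genes on the cold and drought list, COR15A and COR15B were lower than Col (50.0%, beside 12.5% of all probe sets). None was called against the lines, and the COR15B call was lost without Col replicate 2 (0.076). On the high side, AT1G01320 and AT5G10770 exceeded Col by 2.02 and 1.96 and the lines by 0.32 and 0.14 (0.086 and 0.57). Of 4 measured reference genes 1 was higher and 2 lower than Col, where 8.83% and 12.5% of all probe sets were, and 0 were called against the lines. The calls of PEX4 (-0.17, adjusted p = 0.046) and AT2G28390 (0.17, 0.043) were lost without any 1 acs1A array (0.06 to 0.19) and in 10 and 6 of 12 alternatives, and for PEX4 these included a second quantile normalization (0.11), median centring (0.071) and every Col array left out (0.057 to 0.13).

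Organ markers were few. RCA, the activase of the carbon-fixing enzyme and a marker of green tissue, differed by 0.02 from Col (95% interval -0.08 to 0.12) and by 0.05 from the lines (-0.03 to 0.13), at 14.21 to 14.34 on the acs1A arrays. The root markers PYK10 and EXPA7 differed from Col by -0.06 (-0.17 to 0.06) and -0.11 (-0.43 to 0.20) and from the lines by -0.11 (-0.20 to -0.02) and -0.32 (-0.56 to -0.08). None of the 3 was called after adjustment (limma adjusted p of 0.12 or more). They stood for 3 of the 29 organ and seed entries, and the part of organ proportions in the differences was not tested.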

How the data were processed

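The values used are the log2 expression values that the authors deposited, 1 per probe set and array, made with RMA per the submitters' processing notes. RMA corrects background, normalizes by quantiles and summarises probes, and it compresses the differences of dim probe sets; its version is not given in the sources used here. Background signal also receives a value, so presence cannot be read from a low level, and 3 arrays per group limit the precision. The 64 control probe sets were left out, which leaves 22746 in the tests. Exactly 1 gene name was found for 13513 (11933 by locus code only), 503 matched several genes and are never named, and 8730 had no gene name here. Names came from the platform annotation and the RefSeq table of TAIR10.1, which also gave gene order.

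A model with 1 mean per group was fitted to the 27 arrays of the single set with limma 3.58.1 in R 4.3.3 (18 residual and 5.85 prior degrees of freedom), and tested on simulated data. Contrasts were acs1A against Col, against the equally weighted mean of the 7 other lines, and against each line, two-sided, with Benjamini-Hochberg adjustment over all probe sets and calls at an adjusted p below 0.05. The 45 added control transcripts were fitted apart. Values are given as log2 levels per array, and differences as subtracted group means ± SE. Where a gene had more than 1 probe set, the brightest was used. No 2 of the 27 arrays held identical values.

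The members and the 21 gene lists were chosen with earlier results of these data known, and 38 of the 307 list entries were measured. The lists of jasmonate, salicylate and defence, phosphate starvation, nitrogen and sugar status, and seed storage genes had 0 measured. The 27 families were read from gene symbols after the annotation was seen. Named genes are the 15 largest rises and falls that held with every acs1A array beyond every Col array, the 5 largest called against Col, the 10 largest called against the lines and list members called. Held genes with a symbol, genes called against all 7 lines and family members were added after their values were seen, and a selection is described. The results of 1 family are not reported here.

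Alternatives were a fit on the compared arrays alone, a second quantile normalization, median centring, a filter at a mean of 6, trended and robust variances, a replicate block, each array left out, only the lines at the bioC level of acs1A, and each line left out of the mean.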

Additional observations from a re-analysis of the deposited data

Results flagged for a closer look

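The results below are single-gene differences from the other 7 lines that exceeded 1 on the log2 scale in a test of the difference between acs1A and those lines. AT3G07070 differed by 3.93, AT1G50040 by 1.44, EXO by 1.36, AT3G19680 by 1.21, EXLA1 by 1.05 and AT2G32160 by 1.02. AT1G47400 differed by -1.95, AT3G02480 by -1.47, BHLH101 by -1.46, AT3G44450 by -1.21 and AT4G12500 by -1.08. As given above, the calls of EXLA1 and AT4G12500 against the lines were lost without acs1A replicate 2. AT2G32160 read 6.60, 6.98 and 6.17 in acs1A and 4.82 to 6.21 in the other lines, and its call against Col (0.60 ± 0.17, limma adjusted p = 0.012) was lost without acs1A replicate 2 (0.11) or Col replicate 3 (0.09). AT3G44450 read 6.04, 5.60 and 6.17 in acs1A against 6.76, 7.93 and 7.32 in Col and 5.66 to 8.87 in the lines, and it lost its call against the lines without any 1 acs1A array (0.058 to 0.25).

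A signal of AT3G07070 also appeared in the higher order set, which the comparisons above did not use. Its level in the line named hepta was 5.69, 6.03 and 5.39, which exceeded the mean of the Col arrays of that set (4.79, 4.65 and 4.94) by 0.91, without overlap. The lines hexa, penta and miR of the set lay between 4.63 and 4.87. Levels are not compared between the sets, and this difference was not tested here. In the same set AT1G47400 read 7.66, 8.13 and 8.52 in miR and 5.95, 7.14 and 6.85 in Col. BHLH101 read 7.08, 7.71 and 6.77 in miR and 4.49, 5.47 and 4.73 in Col. Neither difference was tested here.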

How the results depend on the processing

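The counts of calls were 4860 against Col, 1170 against the other lines and 574 that held. On the compared arrays alone the count against Col fell to 2319, and with the lines at the bioC level of acs1A the other counts were 375 and 196. Fewer arrays enter those estimates. The Col arrays also spread most of all groups, with a median SD of 0.12 over all probe sets, against 0.0771 in acs1A. The shared estimate of spread can therefore understate that of the comparison with Col. What made these counts fall was not tested. Leaving out 1 acs1A or Col array gave 3322 to 4833 against Col, 294 to 1423 against the lines and 150 to 697 that held, and the lowest of each came without acs1A replicate 2. Leaving each line out of the mean gave 1029 to 1400 and 507 to 663. The share of higher calls against Col was 41.3%, 49.8% after a second quantile normalization and 45.7% after median centring, and of those that held 45.8%, 54.1% and 51.5%. With the replicate number as a block the counts were 4858, 1162 and 566. Deviations of acs1A and Col arrays with the same number correlated at 0.034, 0.092 and 0.024, and those with different numbers at -0.126 to 0.11. The other lines were not checked in this way. With 3 arrays per group, these values cannot settle whether the numbers mark a shared batch. Among the genes examined singly, 153 were called against Col, of which 94 kept the call in all alternatives run, and 103 against the lines, of which 36 did; 0 changed sign. The genes next to ACS1 and AT3G07070 and the counts against each single line were not rerun under the alternatives.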
